A study of Homo sapiens with 10 samples.

Results

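The genes described here are the zinc finger genes on human chromosome 19 whose symbol is ZNF followed by a number, as in ZNF93 or ZNF780B. They were chosen by name and by the chromosome in the deposited locus, though with earlier results of these data known. Where a name was repeated, the row with the highest mean was kept. The chosen genes made up 250 of the 23585 genes in the tables. For comparison, 271 genes with the same form of name lay on other chromosomes, and 1375 other genes lay on chromosome 19.

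Expression was measured by RNA sequencing in SH-SY5Y, an established human neuroblastoma line that the labels describe as neural progenitors or neuroblastoma. Cells received 100 nM of an siRNA against LncND, a long noncoding RNA (3 libraries), or a scrambled siRNA (3 libraries). Other cells received 50 nM of a mimic of the microRNA miR-143-3p (2 libraries) or a scrambled miRNA (2 libraries). All were harvested after 72 hours, and the dose of the scrambled controls was not stated. Both treatments rest on 1 cell line, and the labels do not say whether replicates were separate cultures. The p-values therefore reflect only how far these libraries vary, and that variation may be technical. LncND itself was not analysed here. The siRNA and miRNA libraries were deposited as separate tables, and each treatment was compared with the control in its own table.

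Most zinc finger genes on chromosome 19 belong to the KRAB zinc finger family. Their proteins carry a row of C2H2 zinc fingers, each of which contacts a few bases of DNA, and many carry a KRAB domain at the other end. The KRAB domain binds TRIM28 (also called KAP1), which brings the histone methyltransferase SETDB1, HP1 proteins and the NuRD deacetylase complex to the bound site and silences it. Many of these proteins bind transposable elements, and the family grew by tandem duplication, so related genes lie next to each other in clusters.

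A coding transcript in GENCODE release 29 was found by symbol for 240 of them, and the predicted protein held a median of 12 zinc finger matches, with a highest count of 39 in ZNF729. The same search gave a median of 9 for the ZNF genes on other chromosomes. A pattern for the core of the KRAB box matched 192 of the 240, which counts letters in a protein and is not a domain call. Sorted by hg19 start, with a gap of over 1 Mb opening a new group, 239 members fell into 9 clusters of at least 5 genes and 11 lay outside them.

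The sequences behind the mimic comparison are shown first. A microRNA recognises messages mainly through its seed, bases 2 to 8, which are in capitals in the mature human miR-143-3p (RefSeq, GRCh38.p14, chr5:149428978-149428998, plus strand).
hsa-miR-143-3p: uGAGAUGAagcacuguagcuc
An 8-base site is the reverse complement of that seed followed by A, and it is in capitals in 24-base windows from the 3′ UTRs of GENCODE transcripts of 5 members. The first 4 come from members that rose with the mimic and the last from one that fell.
ZNF780B: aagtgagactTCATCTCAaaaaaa
ZNF471: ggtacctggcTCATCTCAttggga
ZNF134: aaactatcacTCATCTCAgcaaaa
ZNF229: cacccaaatcTCATCTCAatttta
ZNF570: ttggtctgatTCATCTCActctga
The seed match is identical in all 5 windows because the windows were found by searching for it, whereas the flanking bases differ.

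Promoters are shown next, since those of cluster 4, the cluster with the lowest median change with LncND siRNA, resemble each other. Whether this likeness bears on the changes was not tested. RefSeq promoters (GRCh38.p14, 250 bases before to 50 after the start) were matched by symbol for 210 members. The word TCCAATCA contains the CCAAT box bound by the factor NF-Y. It was picked as the 8-base word held by the most cluster 4 promoters. Ties were settled by taking the word found in the fewest promoters of all genes. Capitals mark TCCAATCA in the 110 bases upstream of the start site of 6 genes of cluster 4 and of ZNF441 in cluster 3.
ZNF93 (chr19:19900836-19900945, plus strand): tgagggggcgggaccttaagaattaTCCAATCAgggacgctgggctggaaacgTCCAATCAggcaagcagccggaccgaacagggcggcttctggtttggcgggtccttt
ZNF85 (chr19:20923141-20923250, plus strand): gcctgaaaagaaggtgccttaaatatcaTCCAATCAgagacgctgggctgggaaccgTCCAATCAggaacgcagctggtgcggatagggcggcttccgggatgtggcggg
ZNF714 (chr19:21082093-21082202, plus strand): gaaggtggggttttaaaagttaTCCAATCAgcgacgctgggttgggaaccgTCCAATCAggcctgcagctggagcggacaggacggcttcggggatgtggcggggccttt
ZNF430 (chr19:21020547-21020656, plus strand): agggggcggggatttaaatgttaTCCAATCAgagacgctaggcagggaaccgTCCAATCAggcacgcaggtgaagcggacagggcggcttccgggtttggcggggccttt
ZNF100 (chr19:21767580-21767689, minus strand): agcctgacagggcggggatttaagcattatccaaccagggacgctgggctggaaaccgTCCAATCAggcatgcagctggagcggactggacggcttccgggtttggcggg
ZNF91 (chr19:23395472-23395581, minus strand): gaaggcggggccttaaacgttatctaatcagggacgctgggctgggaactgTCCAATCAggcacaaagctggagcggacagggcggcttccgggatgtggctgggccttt
ZNF441 (chr19:11766890-11766999, plus strand): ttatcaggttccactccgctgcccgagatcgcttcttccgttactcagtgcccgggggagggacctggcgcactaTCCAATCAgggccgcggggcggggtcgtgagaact
ZNF93, ZNF85, ZNF714 and ZNF430 carry the word 2 times in these stretches, and ZNF100, ZNF91 and ZNF441 carry it 1 time. On either strand the word was in 25 of 25 cluster 4 promoters, 19 of 24 of cluster 3, 4 of 5 of cluster 1 and 0 of the other clusters. That is 48 of 210 members (22.9%), against 247 of 14699 promoters of all genes (1.68%). Both shares were shaped by how the word was picked, so the contrast is not a test of enrichment. In cluster 4 the copies lay between 88 and 24 bases upstream of the start site. Promoter pairs within cluster 4 were identical at a median of 76.2% of positions (300 pairs), against 50.4% for pairs from different clusters (18852 pairs).

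Many member promoters held the word CCGGAAG, the core bound by ETS family factors, which is in capitals on either strand in 3 further stretches.
ZNF226 (cluster 7, chr19:44164990-44165099, plus strand): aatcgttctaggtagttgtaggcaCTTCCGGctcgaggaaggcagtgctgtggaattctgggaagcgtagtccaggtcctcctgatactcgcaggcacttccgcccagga
ZNF528 (cluster 8, chr19:52397739-52397848, plus strand): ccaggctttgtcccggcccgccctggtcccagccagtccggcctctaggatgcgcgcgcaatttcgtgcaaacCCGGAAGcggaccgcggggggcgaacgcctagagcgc
ZNF134 (cluster 9, chr19:57614132-57614241, plus strand): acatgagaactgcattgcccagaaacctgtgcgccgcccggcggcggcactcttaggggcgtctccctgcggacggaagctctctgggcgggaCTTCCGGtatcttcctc
This word was in 94 of the 210 member promoters (44.8%) and in 2048 of the 14699 (13.9%). A word match is a description of letters, not a binding site.

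The tables give FPKM, fragments divided by transcript length and by library size, so levels can be compared between genes per length. Depth was estimated from the smallest steps in the values and ran from 14.0 to 44.5 M (mega) fragments, which puts 48 to 154 fragments behind 1 FPKM of a median member transcript. The second mimic library and the first scrambled miRNA library were the shallowest. LncND siRNA replicate 1 summed to 1672814 FPKM over all genes, against 423651 to 441809 in the other 5 siRNA libraries. Over genes with a locus of 300 bp or longer it summed to 432908, against 406082 to 422560, so short genes carried the excess. Of 11 noradrenergic neuroblastoma markers 10 were expressed at a testable level, and TH was near 0. Noradrenergic markers summed to 1691 to 1746 FPKM with scrambled siRNA and 1986 to 2076 with LncND siRNA, and to 2774 to 2784 against 2972 to 3001 in the miRNA table. Schwann and glial markers summed to 3.58 to 3.70 FPKM with scrambled siRNA against 6.39 to 6.75 with LncND siRNA, mostly from S100B, with SOX10 near 0, and to 4.26 to 5.23 with scrambled miRNA against 3.41 to 3.49 with the mimic. Their part in the results was not tested. Fewer cells of a type and less RNA per cell cannot be told apart in these bulk libraries.

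Zinc finger transcripts were scarce. The median member stood at 3.65 FPKM in the scrambled siRNA libraries, and the median ZNF gene on another chromosome at 6.07. The most abundant member was ZNF146 (hg19 chr19:36705503-36729675), which encodes a protein made of zinc fingers with no repressor domain. It stood at 44.1, 41.3 and 43.2 FPKM with scrambled siRNA. All 250 members together summed to 1194, 1180 and 1185 FPKM with scrambled siRNA and to 1126, 1164 and 1151 with LncND siRNA. They summed to 1049 and 1080 FPKM with scrambled miRNA and to 1157 and 1191 with the mimic. The totals were thus lower in every LncND siRNA library and higher in both mimic libraries than in their controls. Outside cluster 4 the sums were 1049, 1039 and 1045 FPKM with scrambled siRNA and 1024, 1058 and 1050 with LncND siRNA. These overlapped, so the lower total with LncND siRNA did not hold outside cluster 4. With the mimic the sums outside cluster 4 were higher, at 1049 and 1072 FPKM against 928.1 and 950.5.

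Genes were tested with limma on log2(FPKM + 1), with Benjamini-Hochberg adjustment over every gene whose mean reached 1 FPKM, and a change was called at an adjusted p under 0.05. Fold changes on this scale understate the change of genes near 1 FPKM. The filter kept 223 members in the LncND comparison and 216 in the mimic comparison, so 27 and 34 members were too low to test. A member can pass the filter through 1 group alone.

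With LncND siRNA, 46 of the 223 tested members rose (20.6%) and 79 fell (35.4%), whereas 98 did not pass the threshold. Among all 12601 genes tested, 36.6% rose and 30.3% fell. The median change of the members was -0.048 on the log2(FPKM + 1) scale, with quartiles of -0.225 and 0.081, against 0.024 over all genes. Quantile scaling of the libraries turned the split to 33 higher and 113 lower. Rescaling to genes of 300 bp or longer gave 41 higher and 69 lower. Without the filter, and over all 250 members, 43 rose and 71 fell. ZNF genes on other chromosomes gave a like picture, with 53 higher and 99 lower of 234 and a median of -0.065. The other genes of chromosome 19 went the other way, with 330 higher and 174 lower of 714 and a median of 0.099. These counts describe the groups, and no test set the members against other genes.

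On the log2(FPKM + 1) scale, 5 of the 223 members were higher and 11 lower by at least 1.5-fold, where the shares over all genes were 8.28% and 4.06%. The share lower was near that over all genes. Tested members had a median of 4.02 FPKM with scrambled siRNA, against 10.9 for all tested genes. Adding 1 therefore shrinks the changes of the members more, and these counts are not changes in FPKM itself. All 3 LncND siRNA libraries lay above all 3 controls for 51 members and below them for 89, against 38.7% and 32.2% of all genes.

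**Figure D1:**
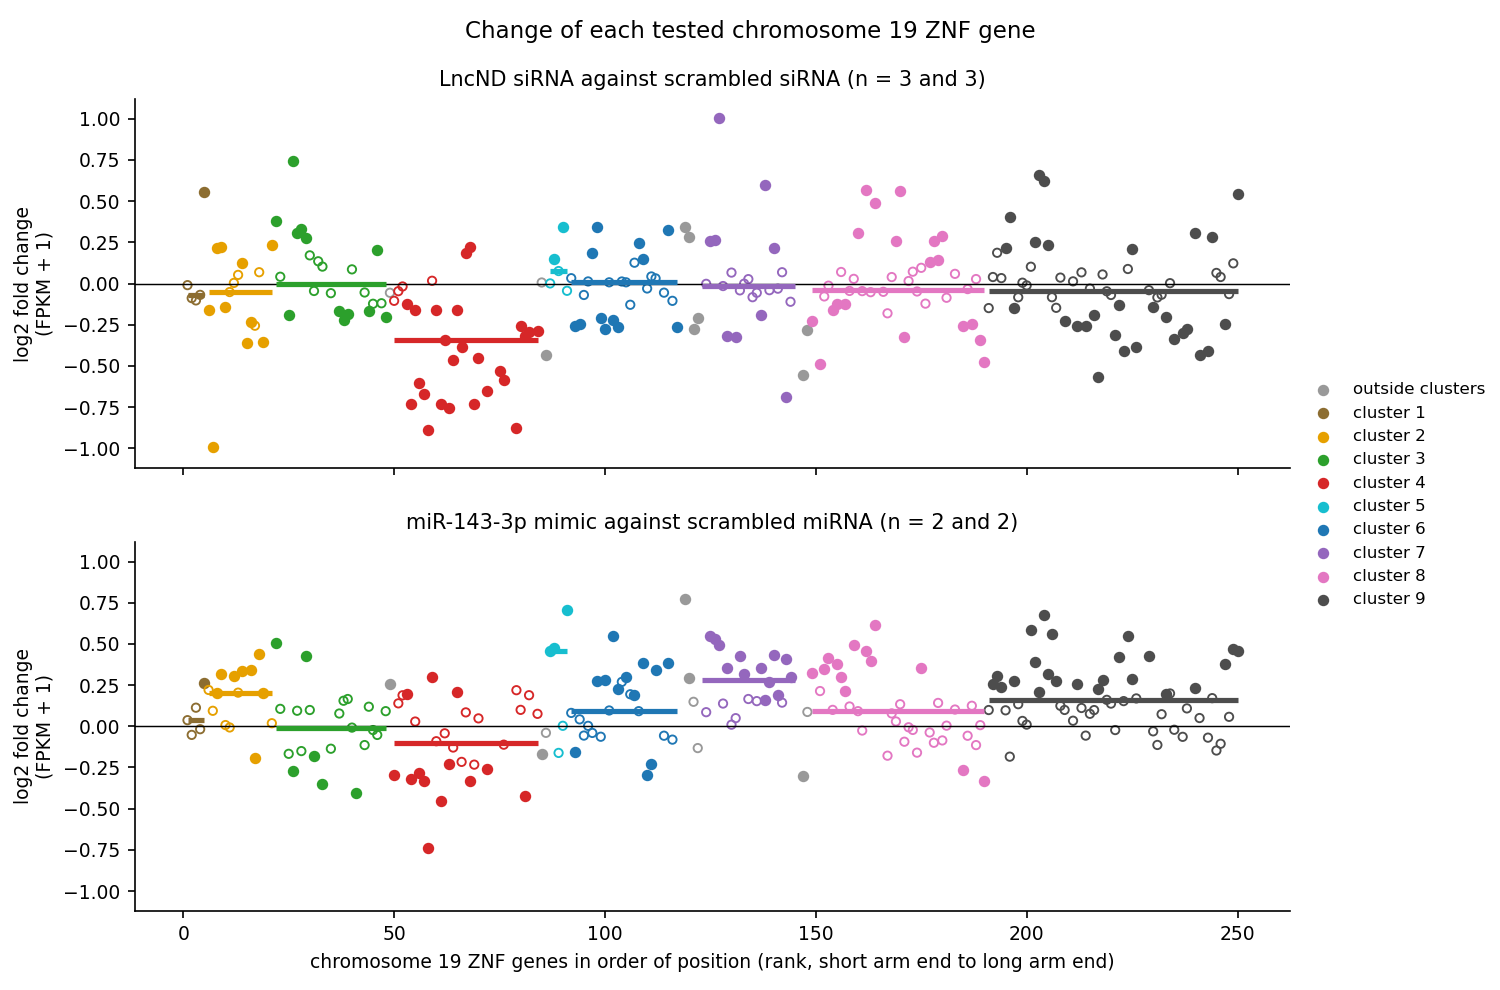
Log2 fold change, on the log2(FPKM + 1) scale, of each tested member against its rank along chromosome 19, with LncND siRNA above and the mimic below. Filled points passed the adjusted threshold, open points did not, and bars are cluster medians, of which cluster 4 is the lowest in both panels, at -0.342 and -0.101.

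Of the 79 falls with LncND siRNA, 23 lay in cluster 4, which holds 35 members between 19.8 and 24.3 Mb of chromosome 19 in hg19, next to the centromere. Of its 29 tested members 23 fell, 2 rose and 4 did not pass, with a median of -0.342 and a range from -0.891 to 0.22. Over all genes tested 30.3% fell and 36.6% rose. The summed level of the 35 genes was 144.6, 140.8 and 140.2 FPKM with scrambled siRNA and 102.0, 105.3 and 101.4 with LncND siRNA. Each treated library was lower than every control library. Of the 11 members that fell by at least 1.5-fold on the log2(FPKM + 1) scale, 9 lay in this cluster. Over the 194 tested members outside it, 44 rose and 56 fell, with a median of -0.033. The 2 rises in cluster 4 were both lost, leaving 0, without LncND siRNA replicate 2 or under quantile scaling. Across all 35 members without the filter, 22 fell and 2 rose.

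ZNF93 (hg19 chr19:20011721-20046382), which represses older families of L1 retrotransposons, stood at 7.49, 7.60 and 7.11 FPKM with scrambled siRNA and 4.05, 3.95 and 4.15 with LncND siRNA. The groups did not overlap, and the treated mean was 0.547 of the control mean, a log2 fold change of -0.73 (SE 0.0447, limma, Benjamini-Hochberg adjusted p 4.01e-07). ZNF85 (chr19:21106058-21133503) stood at 9.31, 8.86 and 8.76 FPKM against 5.14, 4.76 and 5.16, with a log2 fold change of -0.73. ZNF714 (chr19:21264952-21307883) stood at 5.48, 5.40 and 5.21 FPKM against 2.62, 2.86 and 2.84, a log2 fold change of -0.75. All treated libraries of ZNF85 and ZNF714 were lower than their controls, and limma gave Benjamini-Hochberg adjusted p of 5.16e-07 and 5.88e-07. ZNF100 (chr19:21906842-21950430) stood at 4.82, 4.56 and 4.82 FPKM against 2.47, 2.36 and 2.53, a log2 fold change of -0.73. ZNF826P (chr19:20578625-20607771), named as a pseudogene, went from 8.25, 8.40 and 7.80 FPKM to 4.76, 3.49 and 3.64, with a log2 fold change of -0.89. ZNF724P (chr19:23406606-23433172) went from 3.66, 4.71 and 3.69 FPKM to 1.82, 2.03 and 1.35. None of these 3 overlapped between groups.

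Other cluster 4 genes fell less. ZNF91 (chr19:23540497-23578269), with 32 finger matches, represses SVA retrotransposons. It stood at 6.44, 6.16 and 6.201 FPKM with scrambled siRNA and 4.68, 5.38 and 5.19 with LncND siRNA, with no overlap and a log2 fold change of -0.26 (SE 0.0525, limma, Benjamini-Hochberg adjusted p 0.00151). ZNF43, the most abundant of the cluster, went from 9.66, 9.001 and 9.50 FPKM to 6.28, 6.96 and 6.53, a log2 fold change of -0.45. ZNF429 was 1 of the 2 that rose, from 3.83, 3.36 and 3.53 FPKM to 3.96, 4.77 and 4.28, a log2 fold change of 0.22.

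The largest fall of any member on the log2(FPKM + 1) scale was outside cluster 4. ZNF358 (cluster 2, hg19 chr19:7581003-7585911), which encodes 9 finger matches and no KRAB match, stood at 35.5, 38.0 and 38.4 FPKM with scrambled siRNA and 20.1, 18.1 and 16.7 with LncND siRNA. The treated mean was 0.491 of the control mean, and the log2 fold change was -0.99 (SE 0.0613, limma, Benjamini-Hochberg adjusted p 4.42e-07). ZNF229 (cluster 7, chr19:44930425-44952665) went from 2.02, 2.09 and 1.82 FPKM to 0.776, 0.878 and 0.883, a log2 fold change of -0.69. ZNF274, which brings SETDB1 to the 3′ ends of zinc finger genes, went from 4.25, 4.22 and 4.14 FPKM to 2.82, 2.82 and 2.92, a log2 fold change of -0.43. The groups did not overlap for any of these 3 genes. ZNF331, an imprinted gene of cluster 8, also fell, with a log2 fold change of -0.48, and ZNF507 fell with -0.44. ZNF146 fell by 0.26 on the log2 scale, to 35.7, 36.4 and 34.97 FPKM.

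Rises with LncND siRNA were spread over several clusters. ZNF404 (cluster 7, hg19 chr19:44376514-44384288), a KRAB zinc finger gene, rose from 1.74, 1.32 and 1.51 FPKM to 4.27, 3.92 and 3.97, a ratio of means of 2.66 and a log2 fold change of 1.00 (SE 0.0678, limma, Benjamini-Hochberg adjusted p 7.91e-07). ZNF441 (cluster 3, chr19:11877814-11894893) rose from 2.64, 2.76 and 2.84 FPKM to 4.81, 5.40 and 5.62, a log2 fold change of 0.74. ZNF226 (cluster 7, chr19:44669214-44681838) rose from 16.7, 15.9 and 16.9 FPKM to 26.2, 25.2 and 25.2, a log2 fold change of 0.60. All treated libraries of the 3 genes lay above all controls. ZNF667 and ZNF471, both of cluster 9, rose with log2 fold changes of 0.66 and 0.62. ZNF610 and ZNF83 of cluster 8 and ZNF77 of cluster 1 rose by 0.57, 0.56 and 0.55. ZNF653, which represses steroidogenic factor 1, rose by 0.38, and ZNF580 of cluster 9 rose by 0.40.

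Several members with a described role did not pass the threshold with LncND siRNA. ZNF350 (ZBRK1), a BRCA1 partner, had a log2 fold change of -0.013, ZNF568, whose mouse counterpart represses a placental Igf2 transcript, one of 0.012, and ZNF536, a repressor of neuronal differentiation, one of 0.006. The SCAN domain gene ZNF444 had one of 0.005, ZNF627 one of 0.041 and ZNF302 one of 0.0005. ZNF382, a KRAB repressor, passed with 0.18, and that call ended when any of scrambled siRNA replicates 2 and 3 or LncND siRNA replicates 2 and 3 was left out, with no filter, under quantile scaling and with rescaling to genes of 300 bp or longer. ZNF296, a partner of reprogramming factors, was too low to test, at 0.452, 0.416 and 0.294 FPKM with scrambled siRNA and 1.08, 1.06 and 1.07 with LncND siRNA.

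With the miR-143-3p mimic, 75 of 216 tested members rose (34.7%), 22 fell (10.2%) and 119 did not pass. Among all 12558 genes tested, 24.6% rose and 38.6% fell. The median change of the members was 0.104 on the log2(FPKM + 1) scale, with quartiles of -0.041 and 0.277, against -0.062 over all genes. The split was 103 higher and 13 lower under quantile scaling and 61 higher and 17 lower over all 250 members without the filter. Without scrambled miRNA replicate 2 the count of falls went from 22 to 13. ZNF genes on other chromosomes again gave a like picture, with 86 higher and 32 lower of 237 and a median of 0.099. Other chromosome 19 genes had 202 higher and 248 lower of 700 and a median of -0.037.

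On the log2(FPKM + 1) scale, 5 of the 216 members were higher and 1 was lower by at least 1.5-fold, where the shares over all genes were 3.98% and 9.13%. Both mimic libraries lay above both controls for 113 members and below them for 40, against 33.7% and 48.2% of all genes.

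**Figure D2:**
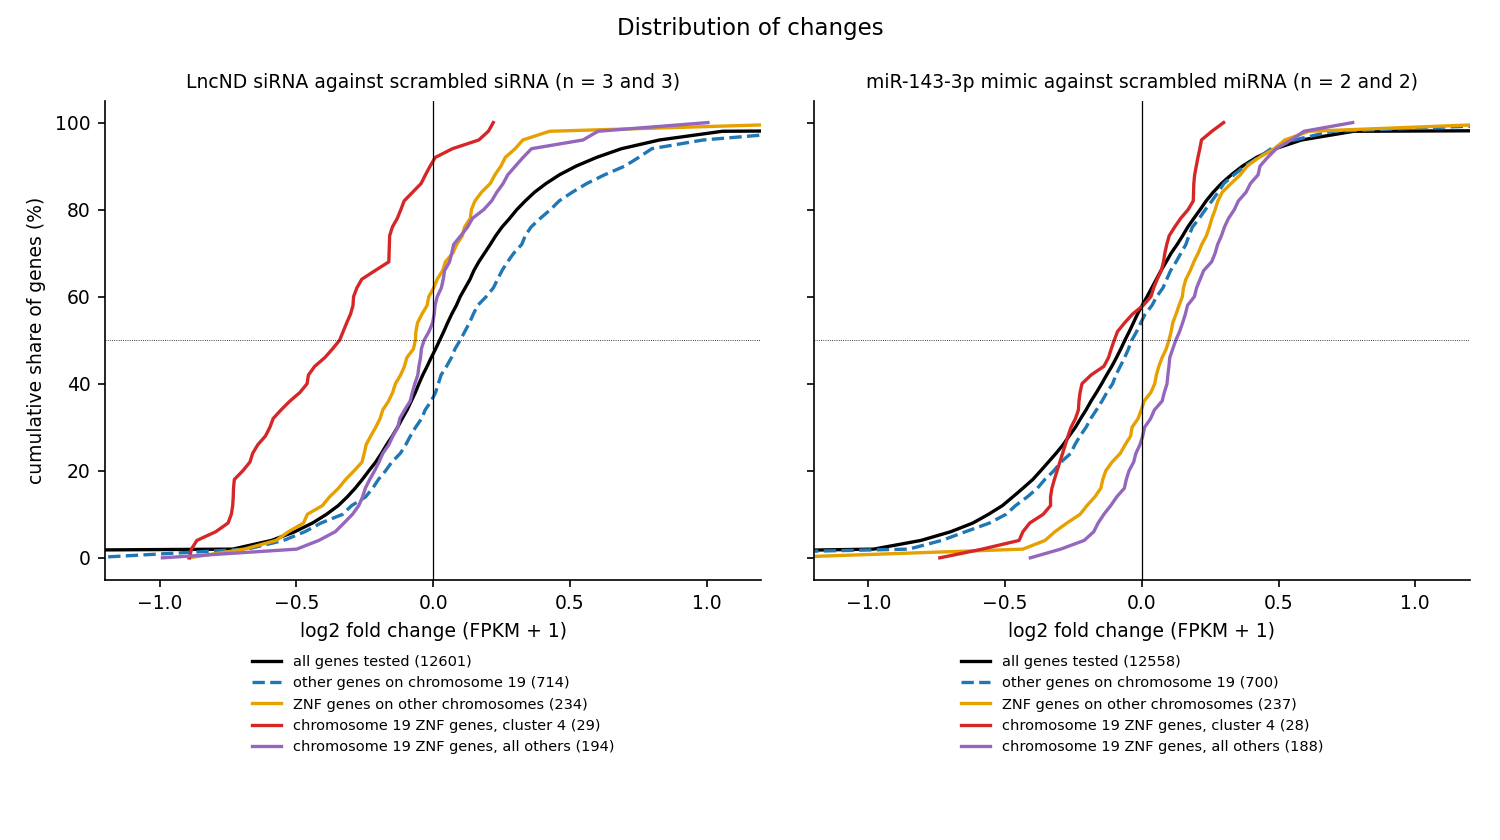
Cumulative share of genes against log2 fold change (FPKM + 1) for all genes tested, other chromosome 19 genes, ZNF genes on other chromosomes and the members inside and outside cluster 4. With LncND siRNA the cluster 4 curve, at a median of -0.342, lies to the left of the others except at its lowest point. With the mimic the members outside cluster 4 have a median of 0.124 against -0.062 for all genes, although the curves cross near the top.

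Cluster 7, between 44.0 and 45.6 Mb, was higher with the mimic across nearly all its genes. Of its 20 tested members 13 rose, 0 fell and all 20 had a fitted change above 0, with a median of 0.283. The summed level of its 23 members was 109.8 and 109.1 FPKM with scrambled miRNA and 137.6 and 135.4 with the mimic. Both mimic libraries lay above both controls for 18 of the 20, against 33.7% of all genes. Cluster 9, at the end of the long arm, had 23 rises and 0 falls among 54 tested members and a median of 0.157. Its summed level went from 258.1 and 263.5 FPKM to 298.6 and 302.7. Cluster 5 had the highest median, 0.455, over only 5 genes, and cluster 2 had 7 rises and 1 fall of 14, with a median of 0.203. Clusters 6 and 8 had 9 and 11 rises and 3 and 2 falls, of 24 and 36 tested. Over all genes 24.6% rose and 38.6% fell with the mimic, and the share of rises in cluster 8, 30.6%, was near the former.

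Cluster 3 had 2 rises and 4 falls of 21, with a median of -0.008. Cluster 4 had 3 rises and 10 falls of 28, with a median of -0.101, and its share of falls, 35.7%, was near that over all genes. Relative to the median of all genes its median was -0.039, and this was 0.003 without scrambled miRNA replicate 2, -0.076 without scrambled miRNA replicate 1, -0.002 without mimic replicate 1 and -0.097 without mimic replicate 2. Its summed level was 120.7 and 129.5 FPKM with scrambled miRNA and 108.2 and 119.4 with the mimic, both mimic libraries being below both controls. The count of rises in cluster 4 was 7 without mimic replicate 1 and 1 without mimic replicate 2 or without scrambled miRNA replicate 1.

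**Figure D3:**
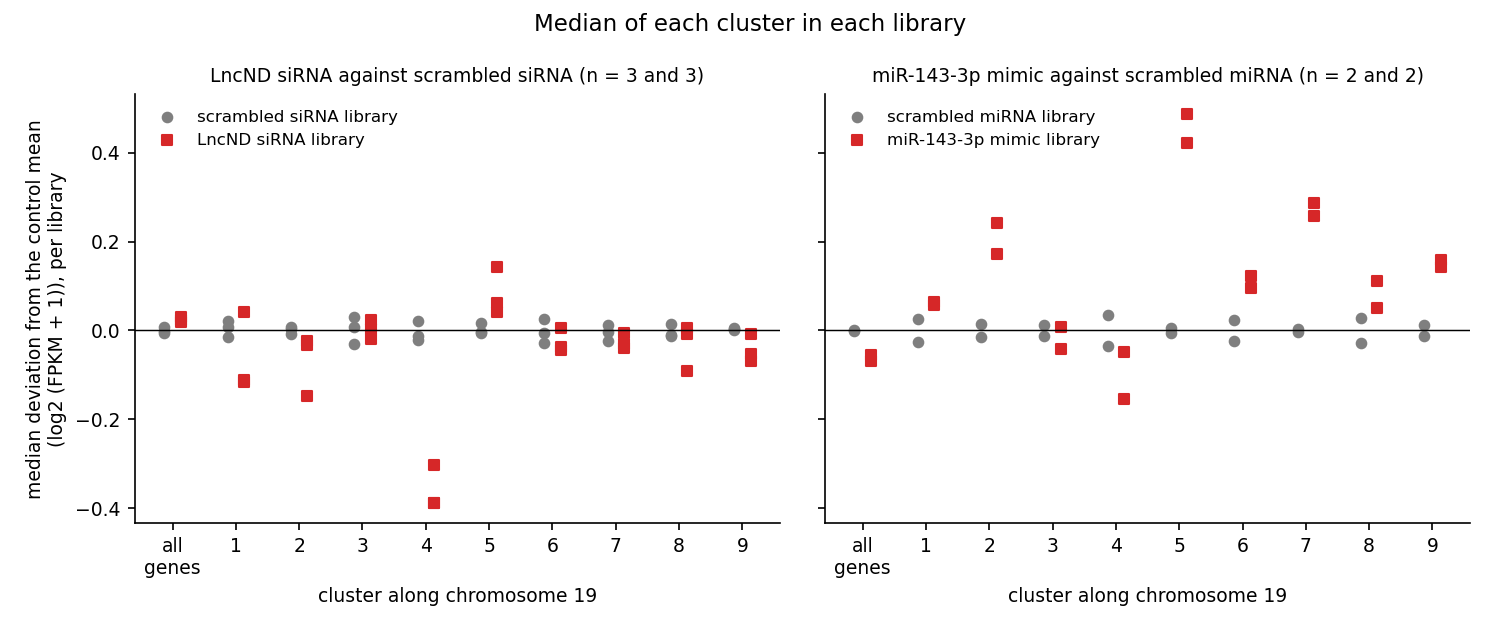
Median deviation of each cluster's tested members from the control mean, in log2(FPKM + 1), with 1 point per library. The LncND siRNA libraries stand at -0.389, -0.302 and -0.389 in cluster 4 (the lower points coincide), and the mimic libraries stand at 0.259 and 0.286 in cluster 7.

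ZNF780B (hg19 chr19:40534166-40562115), a KRAB zinc finger gene outside the clusters, rose from 2.54 and 2.58 FPKM with scrambled miRNA to 5.31 and 4.85 with the mimic. Its ratio of means was 1.98 and its log2 fold change 0.77 (SE 0.0737, limma, Benjamini-Hochberg adjusted p 1.61e-05). Its 3′ UTR holds the 8-base seed match shown above. ZNF792 (cluster 5, chr19:35447257-35454953) rose from 5.43 and 5.18 FPKM to 9.57 and 9.01, a log2 fold change of 0.71. ZNF471 (cluster 9, chr19:57019211-57040269), which also holds a match, rose from 1.62 and 1.49 FPKM to 3.09 and 3.05, a log2 fold change of 0.67. The mimic libraries of all 3 genes lay above their controls. ZNF528 of cluster 8 rose by 0.62 and ZNF582, ZNF71 and ZNF134 of cluster 9 rose by 0.59, 0.56 and 0.55. ZNF428 of cluster 7 rose by 0.55. ZNF302 of cluster 5, flat with LncND siRNA, rose from 14.0 and 13.5 FPKM to 18.8 and 19.7, a log2 fold change of 0.45, and ZNF350 rose by 0.41.

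The falls with the mimic were led by cluster 4 genes. ZNF826P went from 6.98 and 8.82 FPKM to 4.46 and 4.14, a log2 fold change of -0.74 (SE 0.0947, limma, Benjamini-Hochberg adjusted p 0.000104). ZNF85 went from 8.80 and 8.32 FPKM to 5.21 and 6.86, a log2 fold change of -0.45, a call that ended with no filter on low values (adjusted p 0.053). ZNF675 went from 8.42 and 8.46 FPKM to 5.71 and 6.37, a log2 fold change of -0.42. None of these overlapped between groups. ZNF486 and ZNF429, of the same cluster, fell by 0.33 and 0.33 on the log2 scale. ZNF563 and ZNF433 of cluster 3 fell by 0.41 and 0.35, and the call of ZNF433 ended without mimic replicate 1, with no filter and under quantile scaling. ZNF331 fell by 0.33. ZNF146 fell by 0.16, a call that ended when either control or mimic replicate 1 was left out, with no filter and under median-ratio or quantile scaling. ZNF536 fell by 0.17, and its call ended in the same cases and with rescaling to genes of 300 bp or longer.

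Both treatments could be compared for 215 members. The comparisons share no control library. Of these genes 26 rose in both and 12 fell in both, 2 rose with LncND siRNA and fell with the mimic, and 19 did the reverse. Of all 12327 genes tested in both, 1552 rose in both, 2027 fell in both, 1310 rose with LncND siRNA and fell with the mimic, and 575 did the reverse. Of the 12 that fell in both, 8 lay in cluster 4: ZNF93, ZNF90, ZNF486, ZNF826P, ZNF85, ZNF714, ZNF257 and ZNF675. The others were ZNF146, ZNF114, ZNF845 and ZNF331. They were 15.8% of the 76 members that fell with LncND siRNA and 57.1% of the 21 that fell with the mimic. Over all genes the corresponding shares were 53.6% and 42.5%. Those that rose in both included ZNF404, ZNF471, ZNF226, ZNF610, ZNF667, ZNF528, ZNF428, ZNF653, ZNF77 and ZNF780B. The calls of ZNF226 and ZNF77 with the mimic each ended without scrambled miRNA replicate 2, that of ZNF226 also without mimic replicate 1 and that of ZNF77 without mimic replicate 2 or with no filter. As a description across genes, which share libraries, Pearson's r between the changes was 0.391 over the 215 members and 0.249 outside cluster 4, against 0.219 over all genes.

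**Figure D4:**
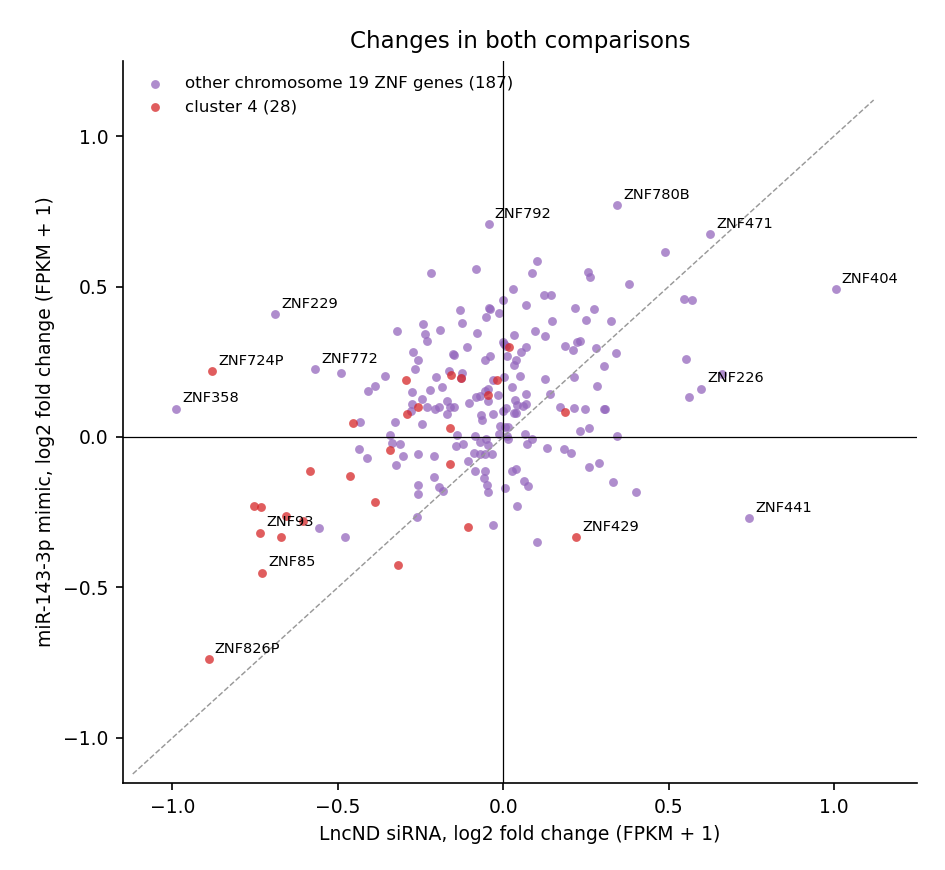
Log2 fold change with the mimic against log2 fold change with LncND siRNA, both on the log2(FPKM + 1) scale, for the 215 members tested in both, with cluster 4 in red. The dashed line marks equal change. The lower left corner holds ZNF826P at -0.89 and -0.74.

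The difference between the effects was tested as an interaction in a limma fit of all 10 libraries, with each effect taken within its own table. The LncND effect was higher than the mimic effect for 17 members and lower for 96, with a median difference of -0.197, where 38.1% of all 12327 genes were higher and 22.0% lower. Quantile scaling gave 9 and 140, moving the median difference of all genes from 0.08 to -0.042, and the count of higher members was 11 without mimic replicate 1. Other ZNF genes had 25 higher and 104 lower of 233. In cluster 4 the difference was lower for 18 of 28 and higher for 1, with a median of -0.323. In cluster 9 it was lower for 26 of 54, in cluster 7 for 11 of 20, and in cluster 3 for 4 of 20 with 4 higher.

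ZNF441 had the largest difference in the upward direction, 1.01 (Benjamini-Hochberg adjusted p 7.2e-07 from limma). It fell with the mimic from 4.04 and 4.37 FPKM to 3.26 and 3.38, while it rose with LncND siRNA. ZNF580 followed with 0.59, then ZNF429 with 0.55 and ZNF404 with 0.51. In the downward direction ZNF724P had a difference of -1.10, ZNF229 one of -1.10, ZNF358 one of -1.08 and ZNF772 one of -0.79. ZNF229 rose with the mimic from 0.687 and 1.01 FPKM to 1.46 and 1.43, while it fell with LncND siRNA. In each comparison ZNF229 passed the filter only through the group where it was high. The levels of ZNF724P overlapped in the miRNA table, with 1.00 and 2.04 FPKM in controls and 1.19 and 2.76 with the mimic. ZNF358 stood at 39.8 and 39.7 FPKM with scrambled miRNA and 42.6 and 42.4 with the mimic, above the controls but short of the threshold (limma, Benjamini-Hochberg adjusted p 0.075). The change passed as a rise with no filter (0.047), median-ratio scaling (0.0074), quantile scaling (0.0042) and rescaling to genes of 300 bp or longer (0.0465), all adjusted p.

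**Figure D5:**
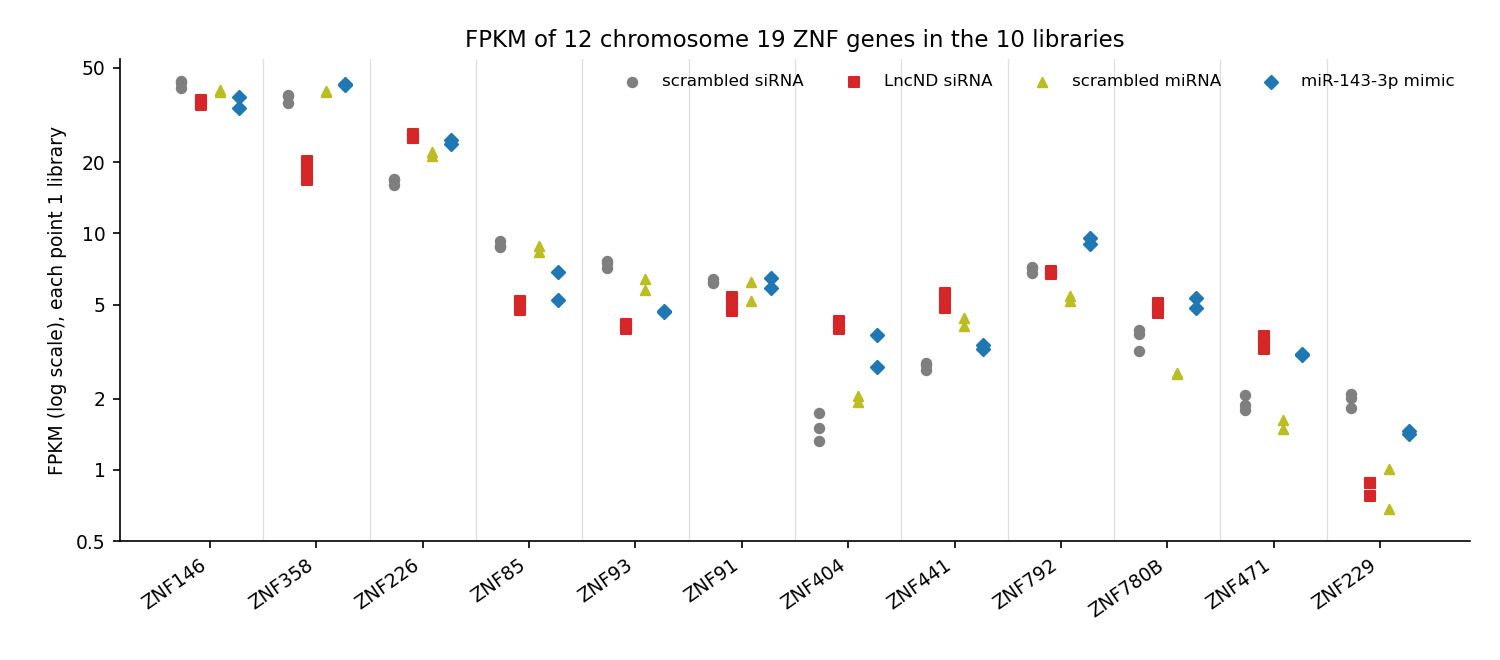
FPKM on a log axis of 12 members in each of the 10 libraries, 1 point per library, coloured by group. ZNF358, ZNF85 and ZNF93 are lower in all LncND siRNA libraries than in scrambled siRNA libraries, and ZNF404, ZNF226 and ZNF441 are higher.

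A list of 32 genes for KRAB co-repressors and other chromatin proteins was followed, all of them tested. With LncND siRNA 2 rose and 20 fell, with a median of -0.178 on the log2(FPKM + 1) scale, and the summed level was 1984 to 2063 FPKM in controls and 1714 to 1821 in treated libraries. Over all genes 36.6% rose and 30.3% fell. The 2 rises were MPHOSPH8 (0.16), of the HUSH silencing complex, and MTA2 (0.10), of NuRD. The count of rises was 1 under quantile scaling and when any scrambled siRNA library, or LncND siRNA replicate 2 or 3, was left out. The largest falls were in CBX5, which encodes HP1 alpha, with a log2 fold change of -0.91, and in UHRF1, which guides DNA methylation to replicated DNA, with -0.79. With the mimic 9 rose (28.1%) and 12 fell (37.5%), with a median of -0.045, shares near the 24.6% and 38.6% of all genes. TRIM24 rose by 0.64 and GATAD2B, of NuRD, by 0.36, whereas the chromatin remodeller HELLS fell by 0.74.

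TRIM28, the shared co-repressor, stood at 143.5, 157.8 and 151.7 FPKM with scrambled siRNA and 148.1, 141.9 and 139.4 with LncND siRNA. The groups overlapped, and the change did not pass (limma, Benjamini-Hochberg adjusted p 0.176). With the mimic it rose from 125.3 and 119.5 FPKM to 147.2 and 139.8, a log2 fold change of 0.23. SETDB1 went from 26.9, 27.3 and 26.0 FPKM to 22.8, 25.5 and 24.1 with LncND siRNA, a log2 fold change of -0.14. With the mimic SETDB1 rose from 19.2 and 19.4 FPKM to 24.4 and 23.4, a log2 fold change of 0.29.

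Properties of the members were set beside their changes as descriptions. With LncND siRNA, members with a KRAB match had 30 rises and 66 falls of 171, with a median of -0.055, and those without had 14 and 11 of 45, with a median of 0.001. Outside cluster 4 these were 28 and 47 of 146 and 14 and 9 of 43. With the mimic, the medians were 0.111 with a match and 0.099 without. The number of zinc fingers had a Pearson's r of -0.054 with the LncND effect and -0.027 with the mimic effect across genes, too weak to report as a relation.

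Seed matches were set beside the mimic effects in the same way. Over all genes, the 472 with an 8-base site in the 3′ UTR had 76 rises and 252 falls with the mimic and a median of -0.199, against -0.049 for the 8933 with no match. The 14 tested members with an 8-base site had 6 rises and 1 fall and a median of 0.168. When members with a 7-base match to positions 2 to 8 were added, the 31 tested had 9 rises and 3 falls and a median of 0.096, and the 29 with only a 7-base match ending in A had a median of 0.084. The 150 members with no match had 54 rises and 15 falls and a median of 0.122, between these values. The fall with an 8-base site was that of ZNF570, with a log2 fold change of -0.23. Besides ZNF780B and ZNF471, the rises were those of ZNF134 (0.55), ZNF229 (0.41), ZNF583 (0.39) and ZNF587 (0.20). Of these, ZNF229 passed the filter only through its mimic libraries, as its control mean was under 1 FPKM. Sites of 8 bases or of 7 bases matching positions 2 to 8 were found in 34 of 240 members and 1977 of 18009 genes, and in 1 of 33 members of cluster 4.

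Outside cluster 4, the 21 tested members with TCCAATCA had 6 rises and 6 falls with LncND siRNA and a median of -0.069, and the 147 without had 30 and 45 and a median of -0.041. With the mimic the medians were 0.078 and 0.153. Over all genes, the 163 with the word had 39 rises and 78 falls with LncND siRNA and a median of -0.110, against 0.021 for the 9043 without, and these include cluster 4. Members with CCGGAAG had a median of 0.147 with the mimic, against 0.094 without it. Over all genes these medians were -0.028 and -0.076, so the shift was not particular to the members. Promoters of cluster 4 held a median of 10 CpG dinucleotides, against 22 in the other members.

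Reads can be split between related genes. By 50-base words, a median of 2.47% of a member's coding transcript was shared with another gene, and 54 members shared more than 10%. Among named genes the share was 19.5% for ZNF358, 19.3% for ZNF653, 13.5% for ZNF100 and 17.4% for ZNF536, and ZNF302 was also above 10%, so their levels are less certain. The locus of 23 members overlapped that of another gene, among them ZNF146 with ZNF565, ZNF653 with ECSIT, ZNF428 with SRRM5 and ZNF826P with MIR1270-1. The strand setting of the counting was not given in the sources used here.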

How the data were processed

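RNA was extracted with a MirVana kit and made into stranded polyA libraries, per the labels' protocols. The authors deposited FPKM values per gene in separate tables for the siRNA (6) and miRNA (4) libraries. Per the submitters' processing notes these came from TopHat (listed version 1.0.0), Cufflinks and hg19. The annotation, the strand setting and any filter were not given in the sources used here. Values are not counts, so limma (3.58.1, R 4.3.3, trended prior) was run on log2(FPKM + 1), with pseudocount 1 and a minimum mean of 1 FPKM, and checked on simulated data. Replicate numbers were not taken to pair the samples.

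Members and lists were chosen with earlier results of these data known. Named genes were, for each comparison, the 8 largest called rises and the 8 largest called falls without overlap between groups, the most abundant member of each cluster, 14 members with a described role, TRIM28, SETDB1 and the 2 largest co-repressor changes each way, and the 4 largest called differences each way. The value of 1 co-repressor gene is not reported here. Other genes named for holding a sequence match were chosen after their values were seen. Sequences came from RefSeq (GRCh38.p14) and GENCODE 29, matched by symbol with Python 3.11.15 and Biopython 1.88, and no coordinates were converted. Alternatives were other pseudocounts, filters and scalings, a replicate block, and leaving out each library. Endothelial and blood markers summed to 0.244 to 0.293 FPKM with scrambled siRNA against 0.141 to 0.219 with LncND siRNA, and epithelial markers to 0.362 to 0.699 against 1.44 to 1.66.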

Additional observations from a re-analysis of the deposited data

How the results depend on the processing

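Of the values recomputed for named genes, 951 of 997 kept their direction and side of the threshold, 29 lost the call and 17 gained one. Quantile scaling lowered the count of falls with the mimic to 13 and the count of higher differences to 9. Leaving out each library gave 36 to 48 rises and 66 to 74 falls with LncND siRNA, 60 to 76 rises and 13 to 24 falls with the mimic, and 11 to 20 higher differences. The median of the members minus that of all genes was -0.104 under quantile scaling with LncND siRNA. With the mimic it was 0.214 and 0.188 with pseudocounts of 0.1 and 0.5, 0.107 with no filter, and 0.156 to 0.197 without each library. For the difference it was -0.325 with pseudocount 0.1 and -0.188 with no filter. Among cluster medians relative to all genes, cluster 3 with the mimic turned to -0.009 with no filter and cluster 5 with LncND siRNA to -0.003 under quantile scaling, and cluster 4 with the mimic, -0.039, ran from -0.097 to 0.003 without each library. The cause was not tested. Same-number libraries had correlations of 0.068, 0.207 and -0.053 in the siRNA table and of 0.135 in both pairs of the miRNA table, where 2 pairs are too few to decide the pairing. A replicate block gave 43 rises and 74 falls with LncND siRNA, 82 and 24 with the mimic and 15 and 92 for the difference, and it added mimic calls for ZNF568, ZNF580 and ZNF83. Depth limits the lowest members, and 27 and 34 of them were not tested.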
